A study of Mus musculus with 109 samples.

Results

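The genes described here are 10 transcripts of the list that marks the A1 state of reactive astrocytes: H2-D1, Serping1, Ggta1, Iigp1, Gbp2, Fbln5, Psmb8, Srgn, Amigo2 and Fkbp5. Each was taken by its Ensembl identifier from a table of read counts, as 10 of 37315 genes, and followed over all treatments, days and genotypes. The table held polyA RNA of 97 WT and 12 Sarm1-/- whole retinas from 64 mice aged 2 to 4 months, with both eyes of 45 mice. Eyes were injected intravitreally with PBS, TNF (tumor necrosis factor), IL1A (interleukin 1 alpha) or IL1A+TNF, so every PBS retina came from an injected eye, mostly the fellow eye of a cytokine-injected one. In batch 1, WT (C57BL/6J) retinas were collected on day 2 after PBS (n = 31), TNF (n = 8), IL1A (n = 9) or IL1A+TNF (n = 10). WT retinas of the same batch were collected on day 14 after PBS (7 retinas of 6 mice) or TNF (n = 6), and on day 35 after PBS (n = 6) or TNF (n = 9). In batch 2, all on day 2, there were WT retinas after PBS (n = 5) or IL1A+TNF (n = 6) and Sarm1-/- retinas after PBS (n = 6) or IL1A+TNF (n = 6). Sarm1-/- mice lack the NAD-cleaving enzyme that drives axon degeneration, and the labels limit this deficiency to no cell type. There were 54 retinas of females and 55 of males, and the labels give each mouse a number, so apart from the paired eyes the retinas of a group were separate animals.

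Astrocytes respond to injury and inflammation by taking up reactive states. IL1A, TNF and C1q, which activated microglia release, induce in cultured astrocytes the state called A1, in contrast to an A2 state first described after ischemia. The A1 list mixes genes of antigen presentation, interferon-induced GTPases, a complement inhibitor, a glycosyltransferase and genes of matrix, granules, adhesion and steroid signaling, and several of them are also made by microglia, leukocytes, vessels or neurons. In whole retina, a transcript that falls because there are fewer cells of a type and one that falls because each cell holds less RNA cannot be told apart.

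RefSeq (GRCm38.p6) gives promoter windows for 8 of the 10 genes, all but Serping1 and Iigp1. The letter patterns were searched on both strands of the 300 bases around each start: the GAS pattern TTCNNNGAA bound by STAT factors, the ISRE core GAAANNGAA bound by interferon regulatory factors, and the NF-kB consensus. The 250 bases before the start are printed for the genes of antigen presentation and for the GTPase, since all 3 rose after IL1A+TNF on day 2 and each held another pattern, marked in capitals. The windows are chr17:35262844-35263093 for H2-D1, chr17:34197945-34198194 for Psmb8 and chr3:142620413-142620662 for Gbp2, all on the plus strand. The start meant here is that of RefSeq. In the GENCODE annotation H2-D1 begins at 35262730 and Psmb8 at 34197721, so both windows lie inside the annotated gene. Gbp2 begins at 142620602, within its window.
H2-D1: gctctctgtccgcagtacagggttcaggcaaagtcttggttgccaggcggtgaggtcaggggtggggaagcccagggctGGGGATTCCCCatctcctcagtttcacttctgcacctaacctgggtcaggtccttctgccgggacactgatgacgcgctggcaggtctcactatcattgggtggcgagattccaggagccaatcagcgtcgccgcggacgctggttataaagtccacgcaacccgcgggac
Psmb8: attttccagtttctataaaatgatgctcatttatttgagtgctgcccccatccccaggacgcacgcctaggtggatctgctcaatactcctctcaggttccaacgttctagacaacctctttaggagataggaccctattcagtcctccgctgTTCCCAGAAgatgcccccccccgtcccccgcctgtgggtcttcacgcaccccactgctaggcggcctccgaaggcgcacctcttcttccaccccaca
Gbp2: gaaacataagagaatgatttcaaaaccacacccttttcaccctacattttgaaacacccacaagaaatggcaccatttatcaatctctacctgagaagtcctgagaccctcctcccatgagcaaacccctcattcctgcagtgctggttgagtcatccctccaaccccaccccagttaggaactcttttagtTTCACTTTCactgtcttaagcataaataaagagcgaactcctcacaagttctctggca
In H2-D1 the capitals mark overlapping NF-kB matches ending 160 and 161 bases before the start, in Psmb8 a GAS match ending 88 bases before it, and in Gbp2 an ISRE core, read on the other strand, ending 49 bases before it. Among all 32851 promoter windows of this length, 4.51% held the NF-kB consensus, 8.30% GAS and 8.56% the ISRE core. Srgn and Fbln5 each held an ISRE core in 1 of their windows, while the windows of Ggta1, Amigo2 and Fkbp5 held none of the patterns. These matches are letters in a window and do not show binding, and sites that depart from these exact letters were not searched for.

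Totals ranged from 30014757 to 79064488 counts per retina, and all 10 genes had counts above 0 in every retina, with a lowest value of 11 counts (Iigp1). Levels are given in CPM, counts scaled to a common library total after TMM normalization, and as mean ± SD where a mean is named. Sarm1 itself was measured at 76.2 to 138 CPM in WT and 25.97 to 52.9 CPM in Sarm1-/- retinas without overlap, so no retina went against its genotype label. Of the Sarm1-/- IL1A+TNF retinas, 2 stood apart from all other day 2 libraries. Their median correlation with the others was 0.874 and 0.887, against at least 0.943 for the rest, and the summed markers of retinal ganglion cells (RGCs) were 91.7 and 76.1 CPM, against 248 to 550 CPM in the other 4 retinas of that group. For comparisons that rest on them, the counts of members called and the calls that changed are given with and without them. Other estimates, list counts and marker medians of that group include both. The defining markers of astrocytes, Gfap, Aqp4, Aldh1l1, S100b, Pax2 and Slc1a3 (which Müller glia express too), were above 0 in every group. Markers of other cells moved with treatment as well. In WT batch 1 on day 2 the sum of 7 neutrophil markers ran from 18.2 to 175 CPM after PBS, 21.96 to 83.7 after TNF, 91.96 to 484 after IL1A and 191 to 1047 after IL1A+TNF, and that of 7 monocyte or macrophage markers from 10.2 to 123, 3.82 to 295, 57.1 to 300 and 222 to 622 CPM. The medians after PBS and IL1A+TNF were 84.8 and 135 CPM for 7 microglia markers, 555 and 805 CPM for 6 astrocyte markers and 42750 and 23250 CPM for 5 rod markers. The part of these shifts in the results below was not tested.

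On day 2 after injection, IL1A+TNF raised 9 of the 10 A1 genes against PBS (limma-voom, FDR under 0.05 over 19548 genes), where 24.9% of all genes tested were called higher. The median change of the 10 genes was 1.15 on the log2 scale, beside -0.02 over all genes. Iigp1 (5.48-fold), Srgn (4.04-fold), H2-D1 (4.03-fold), Psmb8 (3.66-fold) and Ggta1 (3.02-fold) rose most, while Amigo2 rose 1.09-fold and Fkbp5 1.11-fold, and Fbln5 was not called. IL1A alone raised 5 of the 10, H2-D1, Serping1, Ggta1, Psmb8 and Srgn (12% of all genes called higher), with a median of 0.72 beside -0.01. TNF alone changed 0 of the 10 with limma and edgeR and 1 with DESeq2 (Ggta1, FDR 0.0348). At FDR under 0.05 limma called 0.655% of all genes in either direction. At an unadjusted p under 0.05 it gave 1 of the 10 genes, and 7.66% of all genes.

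**Figure D1:**
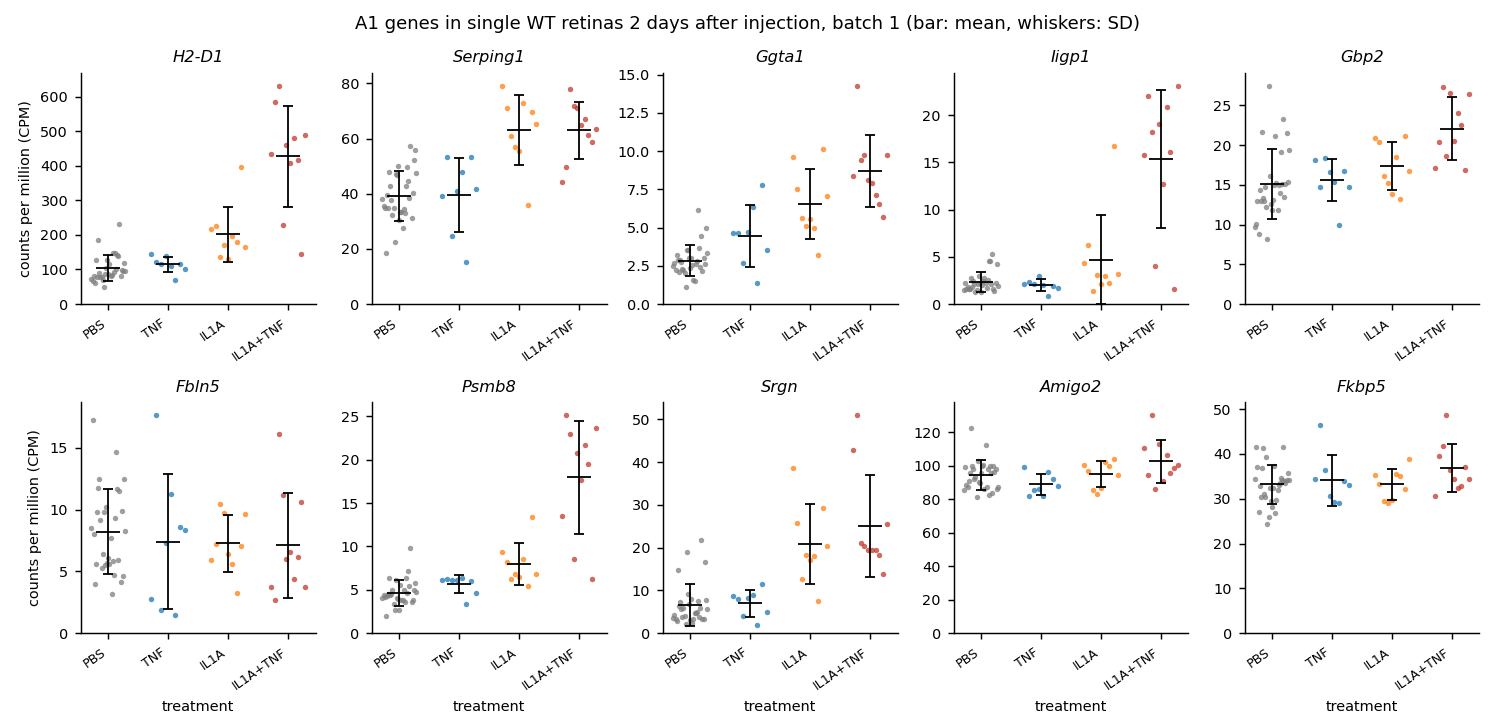
Level of each A1 gene in CPM (vertical axis, linear from 0) in every WT retina of batch 1 on day 2, by treatment; each point is 1 retina, the bar is the mean and the whiskers are the SD. For H2-D1, Iigp1 and Psmb8 the IL1A+TNF retinas sit above nearly all others apart from 2 low retinas, whereas the points of Amigo2, Fkbp5 and Fbln5 overlap across the treatments.

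**Figure D2:**
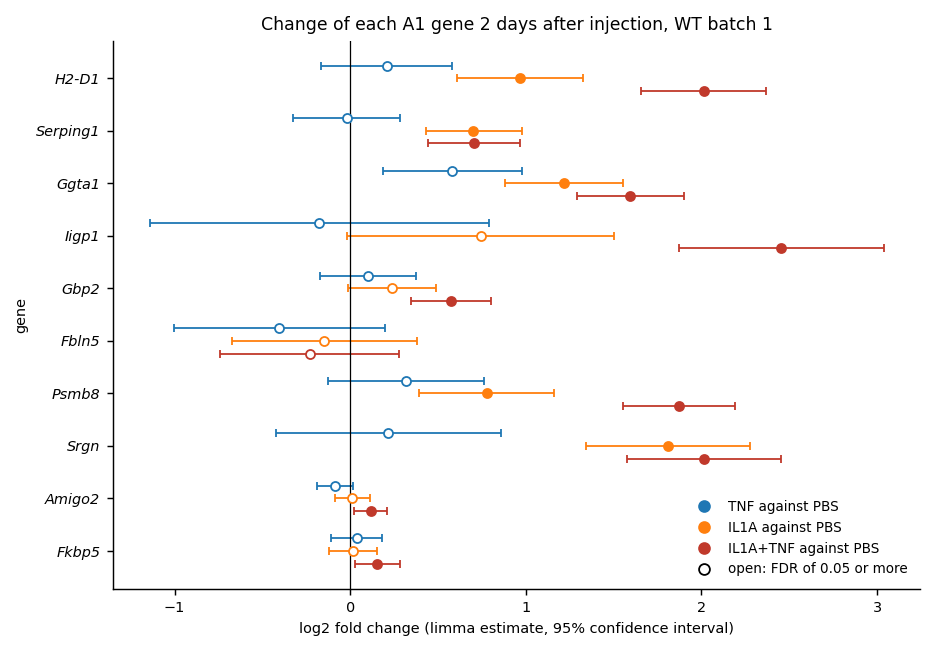
Log2 fold change against PBS on day 2 (horizontal axis) with its 95% confidence interval for each A1 gene, after TNF, IL1A or IL1A+TNF in WT batch 1. Filled points passed FDR 0.05. All TNF points are open, and the IL1A+TNF points reach 2.46 for Iigp1 and lie at 0.12 for Amigo2.

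Antigen presentation was represented by 2 genes. H2-D1 (ENSMUSG00000073411, chr17:35262730-35267499, plus strand, GRCm38) encodes the heavy chain of a classical MHC class I molecule, which displays peptides to CD8 T cells. It ranged from 48.1 to 233 CPM (median 91.9) after PBS, 71.0 to 144 CPM (median 117) after TNF, 131 to 396 CPM (median 181) after IL1A and 145 to 631 CPM (median 448) after IL1A+TNF. Of the IL1A+TNF retinas, 8 of 10 lay above the highest PBS retina, and the other 2, at 228 and 145 CPM, lay within the PBS range. H2-D1 rose after IL1A+TNF (log2 fold change 2.01 ± 0.18, FDR 1.69e-14) and after IL1A (0.97 ± 0.18, FDR 3.04e-05). It was also higher after IL1A+TNF than after IL1A (1.05 ± 0.22, FDR 0.00116) and higher after IL1A than after TNF (0.76 ± 0.23, FDR 0.0282). After TNF it was not called, with an interval of -0.17 to 0.58 on the log2 scale. Of all 100-base words in its transcripts, 3.59% also occurred in 9 other genes, mostly H2-Q1, so a small share of its reads could belong to other class I genes. No such word was shared for the other 9 members.

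Psmb8 (ENSMUSG00000024338, chr17:34197721-34201454, plus strand) encodes an inducible catalytic subunit that turns the proteasome into the immunoproteasome, which cuts the peptides that class I molecules display. It ranged from 2.01 to 9.81 CPM (median 4.37) after PBS, 3.398 to 6.34 CPM (median 6.10) after TNF, 5.399 to 13.4 CPM (median 6.80) after IL1A and 6.27 to 25.1 CPM (median 20.2) after IL1A+TNF. The pair of IL1A+TNF retinas that was low for H2-D1 was low for Psmb8, at 8.53 and 6.27 CPM, and the other 8 lay above every PBS retina. The changes were 1.87 ± 0.16, FDR 5.39e-15 for IL1A+TNF and 0.78 ± 0.19, FDR 0.00168 for IL1A against PBS, and 1.09 ± 0.21, FDR 0.000262 for IL1A+TNF against IL1A. The IL1A call was lost with a term for each mouse (0.52, FDR 0.152). IL1A and TNF retinas were not distinguished (0.46 ± 0.26, FDR 0.283). Among the other genes of class I presentation and the immunoproteasome, 11 of 11 rose after IL1A+TNF (median 1.35), 10 of 11 after IL1A and 0 of 11 after TNF. Psmb10, another immunoproteasome subunit, went from 7.80 ± 1.60 to 22.3 ± 6.61 CPM (log2 fold change 1.45, FDR 1.29e-15), and Tapbp, which holds class I molecules at the peptide transporter, went from 97.9 ± 25.03 to 331 ± 113 CPM (log2 fold change 1.68, FDR 7.15e-15). The constitutive beta subunits of the proteasome had 5 of 7 genes called higher but a median of 0.13, with Psmb1 going from 55.1 ± 5.58 to 63.1 ± 6.71 CPM (log2 fold change 0.20, FDR 0.000431).

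Interferon-induced GTPases, which attack the vacuoles of intracellular microbes, were represented by Iigp1 and Gbp2. Iigp1 (ENSMUSG00000054072, chromosome 18) is an immunity-related GTPase and had the lowest level per length of the 10 genes after PBS, 0.401 CPM per kilobase of exon against 40.3 for H2-D1. It ranged from 1.23 to 5.34 CPM (median 2.16) after PBS, 0.833 to 2.92 CPM (median 2.07) after TNF, 1.36 to 16.8 CPM (median 3.04) after IL1A and 1.61 to 23.1 CPM (median 17.2) after IL1A+TNF. After IL1A+TNF, 8 of 10 retinas exceeded the PBS range and the same pair, at 4.05 and 1.61 CPM, did not. Among the IL1A retinas a single one, at 16.8 CPM, lay far above the next at 6.28 CPM. Iigp1 rose after IL1A+TNF (log2 fold change 2.46 ± 0.29, FDR 2.07e-10), and that level was higher than after IL1A (1.71 ± 0.39, FDR 0.00245). After IL1A alone it was 0.74 ± 0.38, FDR 0.171 with limma and passed with edgeR (FDR 0.00645) and DESeq2 (FDR 0.00609).

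Gbp2 (ENSMUSG00000028270, chr3:142620602-142638008, plus strand) is a guanylate-binding protein with a smaller shift. Its levels ran from 8.18 to 27.4 CPM (median 14.3) after PBS, 9.97 to 18.4 CPM (median 15.99) after TNF, 13.2 to 21.2 CPM (median 16.7) after IL1A and 16.8 to 27.4 CPM (median 21.5) after IL1A+TNF, so no IL1A+TNF retina lay above the highest PBS retina. It rose after IL1A+TNF (0.57 ± 0.11, FDR 2.25e-05), a call lost when each mouse had a term of its own (0.36, FDR 0.0683), and was 0.24 ± 0.13, FDR 0.180 after IL1A. Of the 12 other interferon-induced GTPases tested, 11 rose after IL1A+TNF (median 2.10), 5 after IL1A and 0 after TNF, and their median exceeded the change of Gbp2. Irgm1, a regulator of other GTPases, went from 16.3 ± 9.08 to 144 ± 75.3 CPM (log2 fold change 2.89, FDR 3.38e-13), and Gbp7 went from 18.7 ± 7.97 to 107 ± 53.0 CPM (log2 fold change 2.29, FDR 1.35e-12). Of the 12 tested genes of interferon signaling, 11 rose after IL1A+TNF and 11 after IL1A, among them the transcription factor Irf1, which went from 11.4 ± 3.65 to 54.3 ± 24.7 CPM (log2 fold change 2.07, FDR 2.02e-14).

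Serping1 (ENSMUSG00000023224, chr2:84765387-84775444, minus strand) encodes the C1 inhibitor, which blocks the first protease complex of complement. It ranged from 18.6 to 57.2 CPM (median 38.2) after PBS, 15.3 to 53.5 CPM (median 41.2) after TNF, 35.9 to 78.9 CPM (median 65.2) after IL1A and 44.2 to 78.1 CPM (median 64.1) after IL1A+TNF. Of the retinas after IL1A and IL1A+TNF, 6 of 9 and 8 of 10 lay above the highest PBS retina, and no IL1A+TNF retina lay above the highest IL1A retina. Serping1 rose after IL1A (0.70 ± 0.14, FDR 6.64e-05) and after IL1A+TNF (0.70 ± 0.13, FDR 7.87e-06), and both were higher than TNF (0.72 ± 0.18, FDR 0.00680 and 0.73 ± 0.18, FDR 0.000831). The combination was not called against IL1A, with a difference of 0.00 and an interval of -0.33 to 0.33. Of 11 other complement genes, 6 rose and 2 fell after IL1A+TNF (median 0.53). C1qb, a chain of the recognition molecule C1q, went from 12.7 ± 2.84 to 34.2 ± 8.77 CPM (log2 fold change 1.43, FDR 6.36e-14), while C4b, whose product is cleaved by that complex, went from 92.8 ± 20.3 to 74.4 ± 19.7 CPM (log2 fold change -0.33, FDR 0.0188), and C2 went from 2.58 ± 1.10 to 1.69 ± 0.560 CPM (log2 fold change -0.52, FDR 0.0253).

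Ggta1 (ENSMUSG00000035778, chr2:35400179-35463231, minus strand) encodes the galactosyltransferase that makes the alpha-Gal sugar epitope. It ranged from 1.13 to 6.13 CPM (median 2.68) after PBS, 1.35 to 7.79 CPM (median 4.64) after TNF, 3.19 to 10.2 CPM (median 5.64) after IL1A and 5.69 to 14.2 CPM (median 8.27) after IL1A+TNF. After IL1A+TNF, 9 of 10 retinas lay above every PBS retina, and 2 of 8 did so after TNF. Ggta1 rose after IL1A+TNF (1.60 ± 0.15, FDR 2.14e-13) and after IL1A (1.22 ± 0.17, FDR 5.14e-08), and the step from IL1A to the combination was 0.38 ± 0.18, FDR 0.190. It gave the smallest p of the 10 genes after TNF, with 0.58 ± 0.20, FDR 0.260. Without the TNF retina that was lowest of its group for every member but Amigo2, and whose monocyte marker sum was 3.82 CPM, its change was 0.82 and its FDR 0.00238.

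Srgn (ENSMUSG00000020077, chr10:62493833-62527451, minus strand) encodes serglycin, the core protein of the proteoglycan in the granules of leukocytes and platelets. It ranged from 2.24 to 21.8 CPM (median 5.07) after PBS, 1.86 to 11.52 CPM (median 8.15) after TNF, 7.53 to 38.8 CPM (median 18.3) after IL1A and 13.8 to 50.9 CPM (median 19.96) after IL1A+TNF. All IL1A and IL1A+TNF retinas lay above the PBS median, and 3 of each group lay above the highest PBS retina. The changes were 1.81 ± 0.23, FDR 9.61e-09 for IL1A and 2.02 ± 0.22, FDR 1.70e-11 for IL1A+TNF, and the 2 treatments were not distinguished (0.20 ± 0.25, FDR 0.672). IL1A exceeded TNF (1.59 ± 0.35, FDR 0.00185). The IL1A+TNF retina with the highest Srgn, at 50.9 CPM, also had the highest neutrophil marker sum of its group, 1047 CPM, and the part of such cells in the Srgn result was not tested.

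Fbln5 (ENSMUSG00000021186, chr12:101746565-101819055, minus strand) encodes fibulin 5, which helps to assemble elastic fibers around vessels. It ranged from 3.13 to 17.2 CPM (median 8.02) after PBS, 1.44 to 17.6 CPM (median 7.83) after TNF, 3.27 to 10.5 CPM (median 7.04) after IL1A and 2.68 to 16.1 CPM (median 6.10) after IL1A+TNF. All 4 groups overlapped, and the change after IL1A+TNF was -0.23 ± 0.26, FDR 0.474, with an interval of -0.74 to 0.28. The neighboring list of elastic fiber genes had 5 of 10 members called higher and 0 lower (median 0.28), with the smallest p at Emilin1, which went from 4.49 ± 1.57 to 8.82 ± 1.34 CPM (log2 fold change 1.01, FDR 2.47e-10).

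Amigo2 (ENSMUSG00000048218, chr15:97244125-97247287, minus strand) encodes a leucine-rich repeat adhesion protein, and per length it was the second most abundant of the 10 after PBS, at 29.9 CPM per kilobase. It ranged from 81.6 to 123 CPM (median 95.7) after PBS, 81.8 to 99.4 CPM (median 87.1) after TNF, 83.4 to 104 CPM (median 97.1) after IL1A and 86.4 to 130.1 CPM (median 99.9) after IL1A+TNF. A single IL1A+TNF retina lay above the highest PBS retina. Amigo2 was called higher after IL1A+TNF (0.12 ± 0.05, FDR 0.0332), a call lost with a term for each mouse (0.05, FDR 0.540) and when retina 1, 3, 5 or 7 of that group was left out (FDR 0.0655 to 0.171). Its relatives Amigo1 and Amigo3 were not called, with Amigo1 at 71.0 ± 5.05 after PBS and 68.0 ± 6.56 CPM after IL1A+TNF (log2 fold change -0.06, FDR 0.188). Pced1b, on the opposite strand, overlaps Amigo2 and averaged 2.72 CPM, and whether the counting used strand is not given in the sources used here.

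Fkbp5 (ENSMUSG00000024222, chr17:28399094-28517527, minus strand) encodes a co-chaperone of the glucocorticoid receptor that glucocorticoids themselves induce. It ranged from 24.5 to 41.6 CPM (median 33.5) after PBS, 29.04 to 46.5 CPM (median 33.5) after TNF, 29.1 to 39.0 CPM (median 33.3) after IL1A and 30.7 to 48.6 CPM (median 35.4) after IL1A+TNF. The groups overlapped throughout, with 2 of 10 IL1A+TNF retinas above the PBS range. Its call after IL1A+TNF (0.16 ± 0.07, FDR 0.0403) was lost without the filter on low counts (FDR 0.0624) and when retina 2, 3, 4, 5 or 9 was left out (FDR 0.0552 to 0.162). A list of 10 other genes around the glucocorticoid response had 5 called lower and 0 called higher in the same comparison (median -0.11). It includes the receptor gene Nr3c1 and the co-chaperone gene Fkbp4. With limma, 55.5% of all genes had an unadjusted p under 0.05 there, and the share called lower is not given here. Sgk1, a kinase induced by steroids, went from 381 ± 43.6 to 308 ± 38.3 CPM (log2 fold change -0.30, FDR 3.64e-06), and Dusp1, a phosphatase of MAP kinases, went from 15.9 ± 2.42 to 12.5 ± 1.08 CPM (log2 fold change -0.34, FDR 5.48e-05).

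By their means, H2-D1, Ggta1, Gbp2, Psmb8 and Srgn were ordered IL1A+TNF, IL1A, TNF and PBS from high to low. In that order TNF and PBS were not distinguished for any of the 5, IL1A and TNF only for H2-D1 and Srgn, and IL1A+TNF and IL1A only for H2-D1 and Psmb8. Serping1 had nearly equal means after IL1A and IL1A+TNF, both above TNF and PBS, which were not distinguished. Iigp1 and Amigo2 were ordered IL1A+TNF, IL1A, PBS and TNF, where the step from IL1A to IL1A+TNF of Iigp1 was the only one between neighbors to pass. For Fbln5, highest after PBS and lowest after IL1A+TNF, and for Fkbp5, highest after IL1A+TNF and lowest after IL1A, no neighbors were distinguished.

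Between the treatments, IL1A+TNF exceeded IL1A in 3 of the 10 genes, H2-D1, Iigp1 and Psmb8 (5.39% of all genes called higher), and exceeded TNF in 8 of the 10, all but Fbln5 and Fkbp5 (20% called higher). IL1A exceeded TNF in 3, H2-D1, Serping1 and Srgn (5.39% called higher). Without the filter on low counts H2-D1 lost the call between IL1A and TNF (FDR 0.0549). With a fixed term for each mouse these counts were 0, 4 and 0. The estimates of IL1A+TNF against IL1A in that fit were 0.98 for H2-D1, 1.98 for Iigp1 and 1.496 for Psmb8 (FDR 0.279, 0.0817 and 0.0666). The interaction of IL1A and TNF asks whether the combination differed from the sum of both single changes. It was called for 0 of the 10 genes with limma (3.60% of all genes in either direction; unadjusted p under 0.05 for 4 members and 17.6% of all genes), for 2 with edgeR (Iigp1 and Psmb8) and for 3 with DESeq2 (H2-D1, Iigp1 and Psmb8). Its estimates were 1.89 ± 0.62, FDR 0.0734 for Iigp1, 0.84 ± 0.29, FDR 0.0921 for H2-D1 and 0.77 ± 0.30, FDR 0.144 for Psmb8. For the others they lay between -0.21 for Ggta1 and 0.32 for Fbln5. Of the 12 interferon-induced GTPases beside the members, 6 passed with an interaction above 0 (median 1.20), and so did 3 of 11 class I genes. The remaining reactive-astrocyte lists moved too: after IL1A+TNF 12 of 12 A2 genes rose (median 0.92), with the smallest p at Sphk1, a sphingosine kinase, which went from 5.37 ± 0.692 to 9.15 ± 2.21 CPM (log2 fold change 0.74, FDR 8.01e-13). Of the pan-reactive genes 10 of 13 rose (median 0.88), among them Gfap, the intermediate filament of astrocytes, which went from 93.7 ± 29.3 to 251 ± 54.7 CPM (log2 fold change 1.44, FDR 1.15e-11). H2-T23, a further class I gene of the A1 list, went from 9.14 ± 2.54 to 26.5 ± 8.29 CPM (log2 fold change 1.48, FDR 4.18e-14), and Ugt1a1 did not pass the filter on low counts.

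Female and male retinas were not distinguished for any of the 10 genes on day 2 (0 of 10 with limma, edgeR and DESeq2, 0.363% of all genes in either direction; unadjusted p under 0.05 for 1 member and 9.97% of all genes). The largest estimate was Srgn, 0.39 ± 0.19, FDR 0.458 in females against males.

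In the PBS eyes, most A1 genes fell with the days after injection. Against day 2, 7 of the 10 were lower on day 14 (10.5% of all genes called lower), with a median of -0.95 beside 0.01 over all genes. On day 35, 9 of the 10 differed from day 2, 8 lower and Fkbp5 higher (32.8% of all genes in either direction), with a median of -1.67 beside 0.00. Serping1 fell furthest by day 35. Its PBS retinas ranged from 18.6 to 57.2 CPM (median 38.2) on day 2, 11.6 to 22.7 CPM (median 13.6) on day 14 and 5.52 to 9.63 CPM (median 7.80) on day 35. The day 35 retinas all lay below the day 2 range, and the changes were -1.34 ± 0.17, FDR 3.21e-07 on day 14 and -2.33 ± 0.23, FDR 2.34e-10 on day 35.

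**Figure D3:**
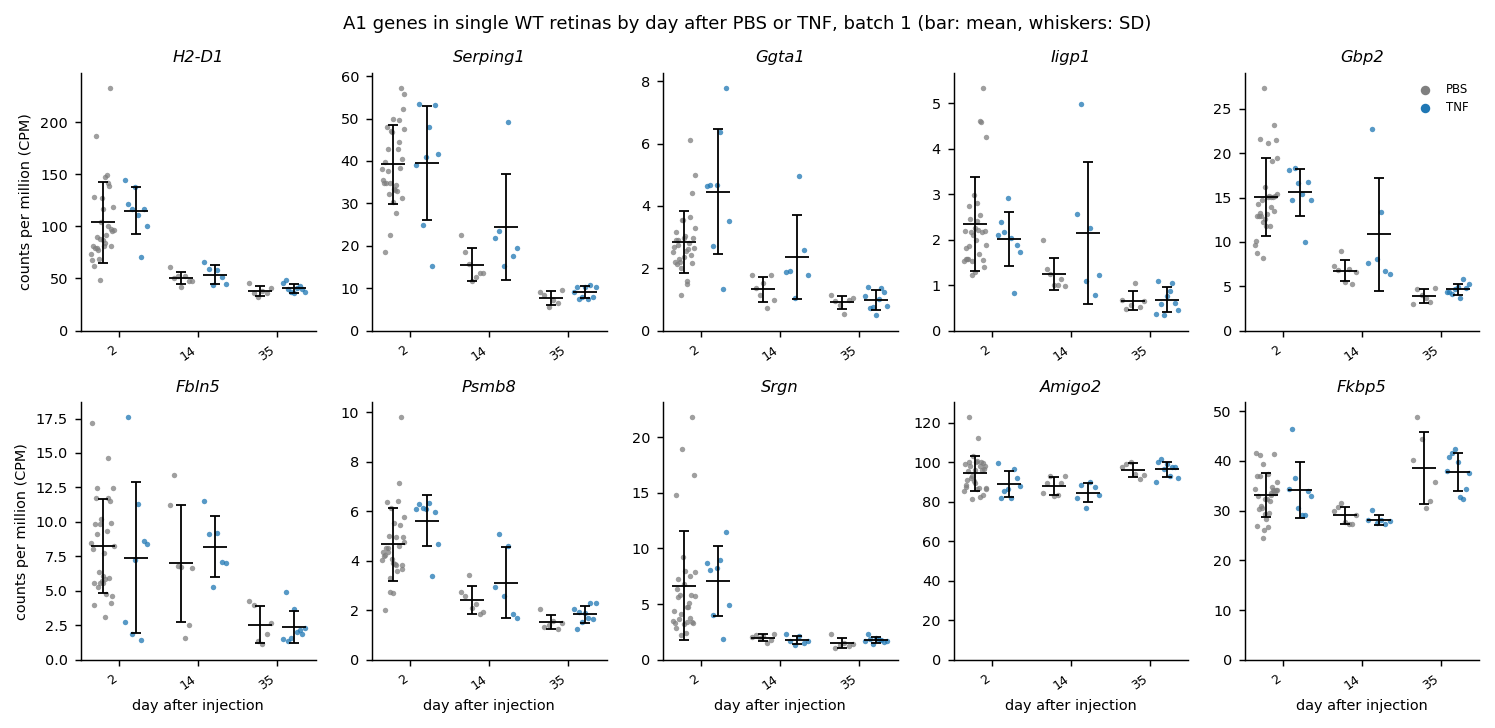
Level of each A1 gene in CPM (vertical axis, linear from 0) in every WT retina of batch 1 on days 2, 14 and 35 after PBS or TNF; points are retinas, bars means and whiskers SDs. The PBS and TNF means of 8 genes lie lower on day 35 than on day 2, and those of Amigo2 and Fkbp5 do not.

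H2-D1 in PBS eyes ranged from 42.1 to 61.4 CPM on day 14 and 32.6 to 45.8 CPM on day 35, the latter below every day 2 PBS retina (-1.38 ± 0.20, FDR 5.63e-07 against day 2). Psmb8 had 1.86 to 3.44 and 1.22 to 2.03 CPM (-1.57 ± 0.25, FDR 3.92e-06). The GTPase genes fell likewise. Iigp1 had 0.985 to 1.99 and 0.472 to 1.05 CPM (-1.74 ± 0.32, FDR 3.30e-05), and Gbp2 had 5.29 to 8.92 and 2.98 to 4.79 CPM (-1.94 ± 0.25, FDR 6.53e-08), both without overlap between days 2 and 35. How many of all genes had no overlap between these days was not counted, and with limma 41.3% of them had an unadjusted p under 0.05. Ggta1 had 0.734 to 1.79 and 0.538 to 1.14 CPM (-1.62 ± 0.26, FDR 6.17e-06), with 5 of 6 day 35 retinas below the day 2 range. Srgn, the leukocyte granule protein, had 1.54 to 2.34 and 1.09 to 2.35 CPM (-1.94 ± 0.50, FDR 0.00209). Fbln5 was called on day 35 but not on day 14, with 1.60 to 13.4 CPM on day 14 (-0.44 ± 0.30, FDR 0.318) and 1.13 to 4.26 CPM on day 35 (-1.72 ± 0.42, FDR 0.00127).

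Amigo2 and Fkbp5 were not called lower on either day. Amigo2 had 82.8 to 93.0 CPM on day 14 and 91.4 to 100.3 CPM on day 35, and its difference between days 35 and 2 lay within -0.08 to 0.12 on the log2 scale. Fkbp5 had 27.2 to 31.5 CPM on day 14 (-0.19 ± 0.08, FDR 0.0988) and 30.6 to 48.8 CPM on day 35 (0.21 ± 0.08, FDR 0.0446), a call lost without the filter on low counts (FDR 0.0612). Between days 14 and 35, 2 of the 10 genes differed (4.25% of all genes in either direction), Serping1 lower (-0.99 ± 0.27, FDR 0.0257) and Fkbp5 higher (0.39 ± 0.10, FDR 0.0231), with 4 called by edgeR and 5 by DESeq2. In the neighboring lists on day 35 against day 2, 11 of 11 class I genes and 11 of 11 tested GTPases were lower. So were 9 of 11 complement genes, 10 of 10 elastic fiber genes and 12 of 13 pan-reactive genes, while 7 of 10 genes of the glucocorticoid list were higher. Of all genes, 32.8% were called in either direction there, and the shares by direction are not given here. The marker sums in PBS eyes went from 84.8 CPM on day 2 to 41.8 CPM on day 35 for microglia, from 45.2 to 5.11 CPM for monocytes or macrophages and from 555 to 399 CPM for astrocytes, and their part in the decline was not tested. Day after injection and any handling shared by the retinas of a day cannot be told apart. The fellow eyes differed by day as well. Of the day 2 PBS eyes, 8 had a TNF fellow, 7 an IL1A fellow and 8 an IL1A+TNF fellow. No PBS eye of day 14 or 35 had a fellow given IL1A or IL1A+TNF, and the part of the fellow eye in the decline was not tested.

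TNF eyes were compared with the PBS eyes of the same day. On day 14, 0 of the 10 genes were called with limma, edgeR or DESeq2 (0.00% of all genes at FDR under 0.05 in either direction), and 3 had an unadjusted p under 0.05, as did 4.65% of all genes. Gbp2 gave 0.60 ± 0.23, FDR 0.888, Serping1 0.49 ± 0.20, FDR 0.888 and Ggta1 0.54 ± 0.25, FDR 0.888. A single TNF retina held the highest Serping1 of the day, 49.1 CPM against 23.5 CPM for the next, and also the highest Ggta1 at 4.96 CPM. Another held the highest Gbp2 at 22.8 CPM and the highest Iigp1 at 4.98 CPM. On day 35 the count was again 0 with limma, edgeR and DESeq2 (0.00% of all genes), and 1 had an unadjusted p under 0.05 (4.89% of all genes), Gbp2, at 0.29 ± 0.11, FDR 0.889. Gbp2 ranged from 2.98 to 4.79 CPM after PBS and 3.64 to 5.81 CPM after TNF that day, with overlap. Of the 6 mice with a PBS and a TNF eye on day 35, Psmb8 was higher in the TNF eye of 6 (median difference 0.44 on the log2 scale), and Gbp2 (0.38) and Srgn (0.24) in that of 5. H2-D1 and Serping1 were higher in that of 4, Amigo2 and Fkbp5 in that of 3, and Ggta1, Iigp1 and Fbln5 in that of 2. The share of all genes with such directions was not counted, and Psmb8 did not reach an unadjusted p under 0.05 with limma. The TNF change was not shown to differ between day 14 and day 2 (0 called with limma, edgeR and DESeq2, 0.00% of all genes; unadjusted p under 0.05 for 2 members and 4.20% of all genes) or between day 35 and day 2 (0 called, 0.00% of all genes; unadjusted p under 0.05 for 0 members and 2.88% of all genes) for any of the 10 genes. The widest intervals were those of Srgn, -1.66 to 0.80 and -1.18 to 1.24.

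Batch 2 repeated IL1A+TNF in other WT mice. Alone, it gave 7 of the 10 genes as higher (13.3% of all genes), H2-D1, Serping1, Ggta1, Iigp1, Psmb8, Srgn and Fkbp5, with a median of 1.10 beside -0.02. That fit held the WT and the Sarm1-/- retinas of batch 2, so the spread behind these errors and FDRs was shared by both genotypes. Without the 2 Sarm1-/- libraries that stood apart the count was again 7. H2-D1 was measured at 107, 75.6, 83.3, 64.6 and 128 CPM in the 5 PBS retinas and 197 to 533 CPM (median 386) in the 6 IL1A+TNF retinas (1.98 ± 0.32, FDR 0.000167). Srgn was measured at 7.17, 4.27, 3.21, 8.75 and 6.26 CPM and 17.6 to 68.2 CPM (median 34.6) (2.60 ± 0.64, FDR 0.00685). Neither gene overlapped between the treatments, and the same held for Serping1, Ggta1, Iigp1, Gbp2 and Psmb8. How many of all genes had no overlap was not counted, and with limma 34.5% of them had an unadjusted p under 0.05. Gbp2 had 14.97, 12.4, 17.8, 8.84 and 12.8 CPM after PBS and 18.3 to 21.5 CPM (median 20.2) after IL1A+TNF but was not called (0.67 ± 0.30, FDR 0.117). Fkbp5 had 29.5, 29.8, 26.8, 30.2 and 30.4 CPM and 29.8 to 35.4 CPM (median 34.6) (0.20 ± 0.06, FDR 0.0263), and Amigo2 95.7, 85.0, 96.9, 75.8 and 99.7 CPM and 54.5 to 105 CPM (median 84.6) (-0.11 ± 0.41, FDR 0.872). Within batch 2, Fkbp5 lost its call with a term for each mouse (FDR 0.0713), and Serping1, Iigp1 and Fkbp5 lost theirs when single retinas were left out (FDR 0.0514 to 0.0792). With both batches in a model, 8 of the 10 were higher (27.8%), and Amigo2 (0.07 ± 0.12, FDR 0.658) and Fbln5 (-0.32 ± 0.23, FDR 0.240) were not called. The change itself was not shown to differ between the batches for any of the 10 genes (0 with limma, edgeR and DESeq2, 0.00% of all genes; unadjusted p under 0.05 for 1 member and 5.95% of all genes), the lowest p being that of Amigo2 (-0.26 ± 0.11, FDR 0.826).

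**Figure D4:**
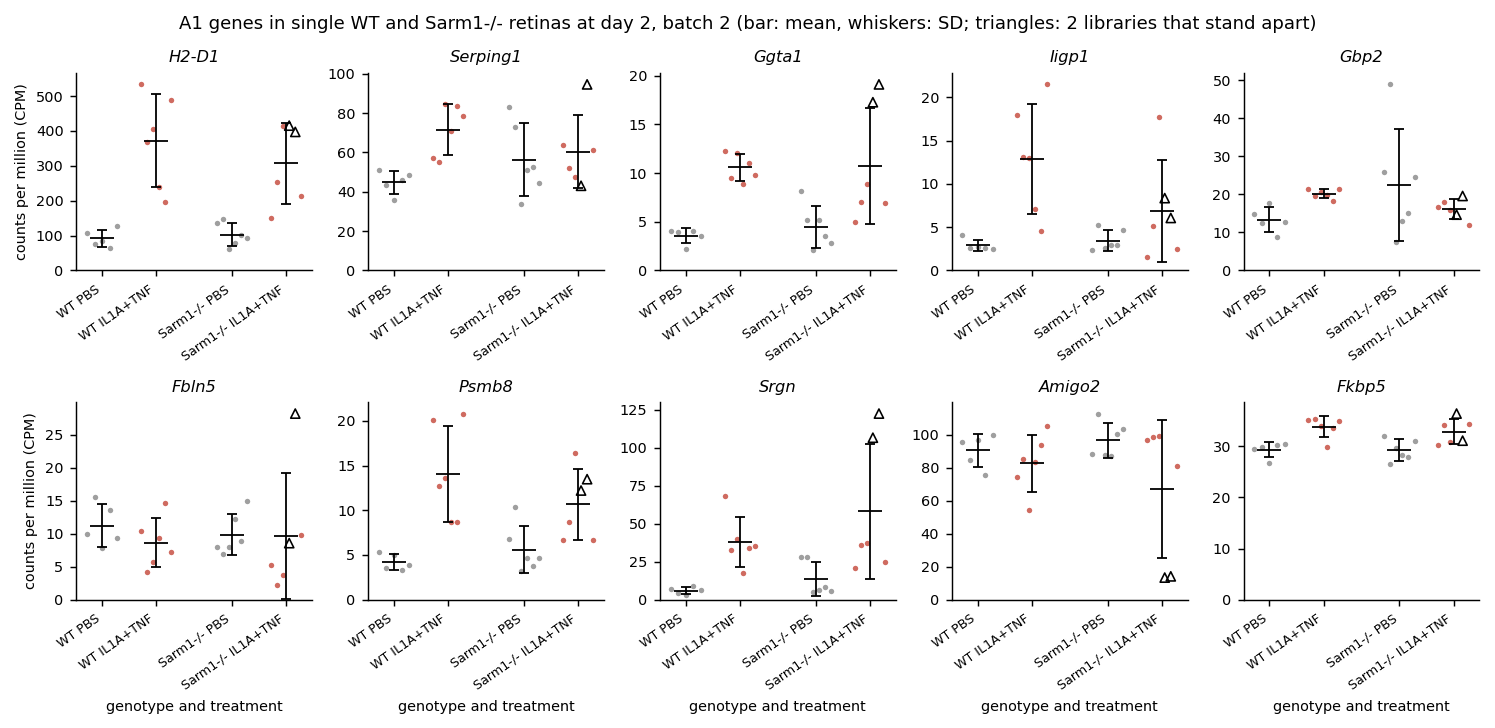
Level of each A1 gene in CPM (vertical axis, linear from 0) in every batch 2 retina on day 2, by genotype and treatment; points are retinas, bars means and whiskers SDs over all retinas of a group. The triangles are the 2 Sarm1-/- IL1A+TNF libraries that stood apart, lowest for Amigo2 at 13.4 and 14.1 CPM and highest for Srgn and Ggta1.

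In Sarm1-/- eyes 5 of the 10 genes were called after IL1A+TNF, near the share of all genes called in either direction, 43.5%. H2-D1, Ggta1, Psmb8 and Srgn were higher and Amigo2 lower. The median change of the 10 genes was 0.46, beside 0.01 over all genes. Without the 2 libraries that stood apart, 3 were called, and Psmb8 (0.78, FDR 0.0704) and Amigo2 (-0.04, FDR 0.863) were not. Within batch 2 alone Amigo2 was not called either (-0.90, FDR 0.0850). H2-D1 ranged from 62.2 to 148 CPM (median 97.3) after PBS to 149.8 to 415 CPM (median 326) after IL1A+TNF without overlap (1.56 ± 0.29, FDR 1.04e-05). Srgn ranged from 5.28 to 28.2 CPM (median 7.49) to 21.1 to 123 CPM (median 36.8) (2.18 ± 0.38, FDR 5.52e-06), and the 2 libraries held the highest values, 107 and 123 CPM, with neutrophil marker sums of 1192 and 1107 CPM. Ggta1 ranged from 2.15 to 8.14 CPM (median 4.33) to 4.95 to 19.1 CPM (median 7.98) (1.22 ± 0.25, FDR 6.58e-05), again highest in those 2, at 17.3 and 19.1 CPM. Psmb8 ranged from 3.21 to 10.3 CPM (median 4.64) to 6.64 to 16.4 CPM (median 10.5) (0.97 ± 0.28, FDR 0.00306).

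Apart from H2-D1, every member overlapped between the treatments in Sarm1-/- eyes, Srgn, Ggta1, Psmb8 and Amigo2 among them. Iigp1 ranged from 2.31 to 5.21 CPM after PBS and 1.51 to 17.7 CPM after IL1A+TNF (0.74 ± 0.48, FDR 0.216), with 3 of 6 IL1A+TNF retinas above and 1 below the PBS range. Gbp2 ranged from 7.41 to 48.9 and 11.9 to 19.6 CPM (-0.28 ± 0.21, FDR 0.295), and Serping1 from 33.5 to 83.2 and 43.0 to 94.6 CPM (0.13 ± 0.20, FDR 0.653). In the Sarm1-/- PBS eyes, 2 retinas were highest for Gbp2, Serping1 and Srgn but not both for Iigp1 (2.31 and 5.21 CPM, the lowest and the highest of the 6): Gbp2 was measured at 25.99 and 48.9 CPM in them and 7.41, 13.1, 15.2 and 24.6 CPM in the other 4, and Srgn at 27.9 and 28.2 against 5.28, 6.53, 8.44 and 5.39 CPM. Their neutrophil marker sums were 147 and 144 CPM, against 24.6 to 38.7 CPM in the other 4, and the part of these cells was not tested. Fbln5 had 6.97 to 14.97 and 2.22 to 28.2 CPM (-0.49 ± 0.37, FDR 0.300) and Fkbp5 26.5 to 32.1 and 30.2 to 36.4 CPM (0.18 ± 0.09, FDR 0.105), the latter called with a term for each mouse (FDR 0.00686) and within batch 2 alone (FDR 0.0333). Of the 12 GTPases beside the members, 4 were higher and 2 lower in Sarm1-/- eyes after IL1A+TNF, and 10 of 11 class I genes were higher. Of all genes, 43.5% were called in either direction there.

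Sarm1-/- and WT eyes were not distinguished after PBS for any of the 10 genes (0 with limma, edgeR and DESeq2, 0.0397% of all genes in either direction; unadjusted p under 0.05 for 1 member and 4.88% of all genes). Gbp2 had the lowest p (0.57 ± 0.20, FDR 0.720). After IL1A+TNF, 1 of the 10 genes was lower in Sarm1-/- eyes (10.8% of all genes), Amigo2, with -0.78 ± 0.20, FDR 0.00690. Amigo2 was measured at 13.4 and 14.1 CPM in the 2 libraries that stood apart and at 96.8, 98.8, 99.6 and 81.0 CPM in the other 4 Sarm1-/- retinas, beside 54.5 to 105 CPM in WT. Without the 2 libraries the difference was 0.12 with FDR 0.594, the sign reversed, without either one alone the FDR was 0.208 and 0.161, within batch 2 alone it was -0.65 with FDR 0.419, and with edgeR it was -0.40 with FDR 0.185. Iigp1 was -1.10 ± 0.41, FDR 0.0591, with levels of 1.51 to 17.7 CPM in Sarm1-/- and 4.57 to 21.5 CPM in WT, and passed with DESeq2 (FDR 0.0359). The median summed marker level in WT and Sarm1-/- IL1A+TNF retinas was 484 and 272 CPM for monocytes or macrophages (without overlap), 169 and 117 CPM for microglia and 776 and 583 CPM for astrocytes, and their part in the genotype differences was not tested.

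The test of the genotype difference in the IL1A+TNF change called 2 of the 10 genes as smaller or more negative in Sarm1-/- eyes (7.24% of all genes), Gbp2 (-0.89 ± 0.24, FDR 0.0173) and Amigo2 (-0.99 ± 0.25, FDR 0.0126). Neither passed without the 2 libraries (Gbp2 -0.98, FDR 0.176, and Amigo2 -0.08, FDR 0.812), within batch 2 alone (FDR 0.814 for both) or with a term for each mouse (FDR 0.114 and 0.120). Gbp2 also lost its call without the Sarm1-/- PBS retina at 48.9 CPM (-0.63, FDR 0.0644). Iigp1 and Psmb8 had estimates of -1.58 ± 0.55, FDR 0.0548 and -0.85 ± 0.32, FDR 0.0762. Iigp1 passed with DESeq2 (FDR 0.0419) and both passed without the Sarm1-/- IL1A+TNF retina that was highest for Iigp1 at 17.7 CPM (FDR 0.0139 and 0.0320). Amigo2 was not called with edgeR (FDR 0.153) or DESeq2 (FDR 0.113). Serping1 (-0.58 ± 0.23, FDR 0.105) passed without the Sarm1-/- PBS retina that was lowest for it at 33.5 CPM (-0.72, FDR 0.0445). H2-D1 (-0.45 ± 0.33, FDR 0.429), Ggta1 (-0.36 ± 0.30, FDR 0.506) and Srgn (0.01 ± 0.45, FDR 0.992) were not called, with intervals of -1.10 to 0.20, -0.95 to 0.24 and -0.88 to 0.91.

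After the mean of each of the 12 groups was removed from log2 CPM, correlations over all retinas, which share libraries and in part mice, described which genes were high in the same retinas. H2-D1, Psmb8 and Iigp1 had the highest values, with r of 0.79 for H2-D1 and Psmb8, 0.75 for Iigp1 and Psmb8 and 0.75 for H2-D1 and Iigp1. Gbp2 had 0.69 with Psmb8, 0.54 with Serping1, 0.52 with H2-D1 and 0.44 with Iigp1 and with Srgn. Ggta1 had 0.66 with Srgn and 0.63 with Serping1, and Srgn had 0.59 with H2-D1. Amigo2 ran from -0.31 to 0.10 with the other members, but from -0.06 to 0.34 without the 2 libraries that stood apart, when it had 0.34 with Gbp2, 0.29 with H2-D1 and 0.26 with Psmb8. In PBS retinas alone these were 0.45, 0.38 and 0.35. Fkbp5 had at most 0.34, with Fbln5. In the 55 PBS retinas alone, H2-D1 and Psmb8 had 0.75 and H2-D1 and Serping1 0.67, against 0.40 over all retinas.

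**Figure D5:**
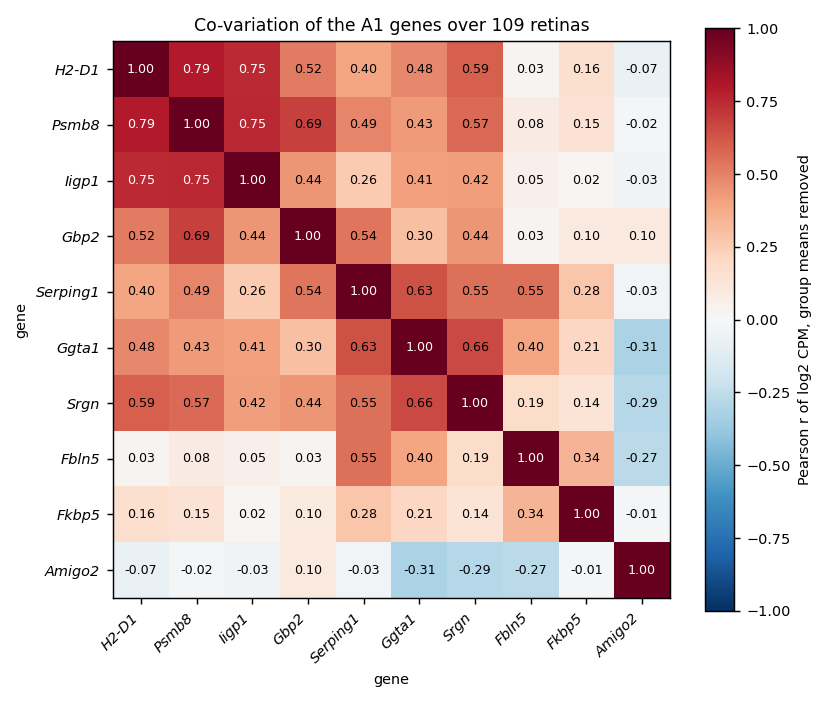
Pearson r between each pair of A1 genes over all retinas after the mean of each group was removed; rows and columns are genes, and color and number give r from -1 to 1. The pairs of H2-D1, Psmb8 and Iigp1 have r of 0.75 to 0.79, and the row of Amigo2 runs from -0.31 to 0.10, or from -0.06 to 0.34 without the 2 Sarm1-/- libraries that stood apart.

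The closest genes of each member among 14960 genes of at least 1 CPM give its company. For H2-D1 these were Irf9 (r = 0.90), a subunit of the interferon-activated factor ISGF3, Tap1 (0.90), the peptide transporter, and Bst2 (0.89), an interferon-induced restriction factor. Psmb8 was closest to Gbp3 (0.86), Oasl2 (0.85) and Ifit3 (0.84), and Iigp1 to Ddx58 (0.86), Gbp7 (0.85) and Irgm2 (0.85). Gbp2 was closest to Ube2l6 (0.74), Gbp9 (0.73) and Gbp2b (0.73). Serping1 was closest to C1ra (0.84), the protease its product inhibits, C3 (0.82) and Tmem176a (0.82). Srgn was closest to Lcp1 (0.91), Csf2rb (0.90) and Cd53 (0.90), which are leukocyte genes, and Ggta1 to Tgfb1 (0.81), Litaf (0.79) and Nckap1l (0.79). Fbln5 was closest to Fam129a (0.91), Ptgds (0.90) and Ism2 (0.90). Fkbp5 was closest to Dpysl3 (0.71), Zbtb16 (0.68), a glucocorticoid-induced transcription factor, and Tax1bp1 (0.67). Amigo2 was closest to Lamp5 (0.97), Neurod4 (0.96) and Syt2 (0.95), and these values were 0.77, 0.70 and 0.69 without the 2 Sarm1-/- libraries that stood apart. Its value with Lamp5 was 0.73 as Spearman's rho and 0.76 in PBS retinas alone.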

How the data were processed

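Whole-retina polyA RNA libraries were sequenced as 150-base pairs. Per the labels, the authors aligned reads to mm10 with STAR 2.7.9a and made gene counts with featureCounts of Subread 2.0.1, and the deposited table holds raw counts per gene, totalling 30014757 to 79064488 per retina. Identifiers were placed by the GENCODE annotation of GRCm38. From these counts, genes were filtered (filterByExpr, minimum count 10), scaled by TMM and fitted with limma-voom 3.58.1 (treatment or group, sex, and batch where both batches entered), with mouse as a random block in all fits but those across PBS days. P-values were adjusted over all genes tested and called at FDR under 0.05. Tests measure the spread between the retinas of a group. edgeR 4.0.16, DESeq2 1.42.0, other scaling, no filter, no sex term, other blocks and single retinas left out were alternatives. The edgeR and DESeq2 fits held no term for the mouse, so they took fellow eyes as separate samples. Both eyes pair the samples through the mouse: residuals of the fellow eyes correlated at a median of 0.209 over 45 mice, above 0.1 in 29. The correlation that the random block used was 0.052 for WT day 2, 0.0053 with both batches, -0.076 for batch 2 alone and 0.284 for TNF on day 14. The members and lists were chosen with earlier results of these data known. The named genes were all members, the 3 genes most correlated with each, and the 3 of each list with the smallest p plus those called against its median. Some fits were tested on simulated counts without effects of mouse or batch, which do not check the pairing or libraries that stand apart. The labels' text on harvest names day 2, while each retina's label gives its day.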

Additional observations from a re-analysis of the deposited data

Results flagged for a closer look

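Among 110 sets of a group of 4 to 10 retinas and a gene, 15 held a retina far from the others by Dixon's test at the 95% level, a test that chance alone passes in about 1 in 20 groups. The IL1A retina 8 of WT batch 1 was far above the others for H2-D1 (396 CPM, next 225), Iigp1 (16.8, next 6.28) and Psmb8 (13.4, next 9.38). In the same batch, IL1A+TNF retina 2 was high for Ggta1 at 14.2 CPM (next 9.75), TNF retina 2 of day 2 was high for Fkbp5 at 46.5 CPM (next 36.5), and TNF retina 6 of day 2 was low for Gbp2 at 9.97 CPM (next 14.7). On day 14, TNF retina 4 was high for Serping1 at 49.1 CPM (next 23.5), TNF retina 2 for Fkbp5 at 30.2 CPM (next 28.1) and PBS retina 1 for Iigp1 at 1.99 CPM (next 1.36). On day 35, PBS retina 4 was high for Iigp1 at 1.05 CPM (next 0.678) and PBS retina 1 for Srgn at 2.35 CPM (next 1.53). In batch 2, WT PBS retina 1 was high for Iigp1 at 4.08 CPM (next 2.74), WT PBS retina 3 low for Fkbp5 at 26.8 CPM (next 29.5), and WT IL1A+TNF retina 4 low for Fkbp5 at 29.8 CPM (next 33.6). Sarm1-/- IL1A+TNF retina 5, which is 1 of the 2 libraries that stood apart, was high for Fbln5 at 28.2 CPM (next 9.75).

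The IL1A+TNF change differed between the genotypes by its own test for Gbp2 (-0.89 on the log2 scale, Sarm1-/- minus WT) and Amigo2 (-0.99). Without the 2 libraries that stood apart neither was called, with Gbp2 at -0.98 (FDR 0.176) and Amigo2 at -0.08 (FDR 0.812).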

How the results depend on the processing

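Member counts stayed within 1.5 times of the reported ones in 147 refits with another setting and moved further in 18, and with 1 retina left out these were 107 and 11. With mouse as a fixed replicate block, the counts became 0 for IL1A+TNF against IL1A, 4 for IL1A+TNF against TNF, 0 for IL1A against TNF and 0 for the genotype difference in the treatment change; pairing by mouse moved no other count that far, and a fit with no block changed no count. edgeR and DESeq2 gave 0 and 1 for TNF on day 2, 2 and 3 for the interaction (2 in a joint fit of batch 1) and 4 and 5 between PBS days 14 and 35. edgeR gave 0 for Sarm1-/- against WT after IL1A+TNF and 1 for the genotype difference, and no sex term gave 2 for the former. Batch 2 alone gave 0 for both. Leaving out the 2 libraries that stood apart, an alternative chosen after seeing the data, gave 3 for Sarm1-/- IL1A+TNF against PBS and 0 for both genotype tests, with Amigo2 reversed to 0.12 after IL1A+TNF; the cause was not tested. With 1 retina left out, counts ran from 0 to 1 for TNF on day 2, 0 to 2 for Sarm1-/- against WT after IL1A+TNF and 0 to 4 for the genotype difference. Amigo2 without TMM scaling averaged 90.9 CPM after PBS and 92.0 CPM after TNF on day 35. Correlations moved beyond their interval to 0.85 for H2-D1 and Irf9 and 0.73 for Amigo2 and Lamp5 (rho), to 0.72 for Ggta1 and Tgfb1, 0.73 for Iigp1 and Ddx58 and 0.76 for Amigo2 and Lamp5 (PBS alone), and to 0.77 for the last without the 2 libraries. Of member estimates, 106 changed sign while passing in neither fit.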

Other observations

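Fkbp5 was split by sex on day 35. After PBS, the 3 males had 40.3, 48.8 and 44.4 CPM and the 3 females 30.6, 31.9 and 35.7 CPM. After TNF, the 5 males had 38.0 to 42.4 CPM and the 4 females 32.4 to 37.5 CPM. In neither treatment did the sexes overlap, though part of these retinas are fellow eyes of 1 mouse. On day 14 the sexes overlapped after PBS, with 27.3 to 31.5 CPM in 4 retinas of males and 27.2 to 29.9 CPM in 3 of females. They also overlapped after TNF that day, with 27.4 and 30.2 CPM in males and 27.3 to 28.1 CPM in females. The split was noticed in the values and was not tested, and how many of all genes split this way was not counted. The males and the females of day 35 lie in separate runs of mouse numbers. Sex and any handling shared by such a run therefore cannot be told apart.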
